A study of Medicago truncatula with 9 samples.

Results

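MicroRNAs (miRNAs) of Medicago truncatula R108 seedlings were compared between salt and distilled water, with 3 small RNA libraries from each condition. The members of the comparison are the salt libraries SS1, SS2 and SS3 and the distilled water libraries DW1, DW2 and DW3, which are 6 of the 9 libraries of the study, and they were chosen by their labelled condition alone. All 905 known and predicted miRNA entries of the deposited count table were taken, and 864 of them had a count in at least 1 of the 6 libraries (655 known and 209 predicted). Salt was a mixture of NaCl and Na2SO4 at 20 mM, and seeds of the R108 genotype were germinated on it or on distilled water for 72 h before entire seedlings were harvested. The remaining 3 libraries, AS1 to AS3, came from seedlings on 5 mM Na2CO3 and NaHCO3 (alkali) and entered the fit to share 1 estimate of the spread. The methods of the study describe 1 dish for each condition and do not state whether the 3 replicates were separate dishes, so p-values measure the spread between these libraries, which may be partly technical. In RNA of entire seedlings, fewer cells that make a miRNA and less of it per cell cannot be told apart. The study reports that salt seedlings were shorter than those in distilled water and delayed in development. Their cotyledons were still closed, and root and stem were not clearly distinct. The groups therefore differed in stage as well as in treatment, and whether a change followed stage or organ make-up was not tested.

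The total miRNA count was 3918174 to 7191272 reads in the salt libraries and 3746957 to 4554748 reads in the distilled water libraries. Levels are given as CPM, counts per 1000000 miRNA counts after correction by a TMM factor (trimmed mean of M-values), which allows for a few abundant miRNAs taking a different share of a library. TMM factors were 0.871 to 1.07 in salt and 1.07 to 1.35 in distilled water, the highest being that of DW1. On the first principal component, which held 53.2% of the variance of the 6 libraries, scores were 3.85 to 6.38 for salt and -8.90 to -0.84 for distilled water, with DW3 nearest to salt.

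Plant miRNAs are short RNAs that are cut by a Dicer enzyme from a hairpin precursor and are loaded into an Argonaute protein. They pair almost fully with their target mRNAs and direct their cleavage or block their translation. Each hairpin can give a miRNA from its 5p and from its 3p arm, and several hairpins of a family often give the same mature sequence. Many conserved plant miRNA families target transcription factors, while others target enzymes and transporters of mineral nutrition, among them copper proteins and the enzymes of sulfate assimilation.

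The mature sequences on which the comparison turned were taken from the sequence lists that accompany the study, which held 47 of the 53 called names and 26 distinct sequences among them, and they are printed 5′ to 3′ with bases 2 to 8, the seed, in capitals. They are shown because they tell which entries are separate measurements and which differ by only a few bases while moving in different directions.
mtr-miR5211: uCGCAGGAgugaugggaccggc
mtr-miR156i-5p: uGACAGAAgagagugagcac
mtr-miR156a: uGACAGAAgagagagagcaca
mtr-miR156e: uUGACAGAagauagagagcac
mtr-miR156i-3p: uGCUCACUucucuuucugucauc
mtr-miR398b: uGUGUUCUcaggucgccccug
mtr-miR398a-3p: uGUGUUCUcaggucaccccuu
mtr-miR408-3p: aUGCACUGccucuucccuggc
mtr-miR2111a-5p: uAAUCUGCauccugagguuua
mtr-miR2111l: aUCCUUGGaaugcagauuauc
mtr-miR169c: cAGCCAAGggugauuugccgg
mtr-miR169h: uGAGCCAAagaugacuugccgg
mtr-miR395a: aUGAAGUGuuugggggaacuc
The sequence of mtr-miR156i-5p is also that of mtr-miR156b-5p, mtr-miR156c-5p and mtr-miR156d-5p, and that of mtr-miR156e is also listed for mtr-miR156f and mtr-miR156h-5p. The sequence of mtr-miR2111a-5p is shared by 14 entries and that of mtr-miR395a by 11, whose counts are not all equal. Aligned without gaps, mtr-miR156a and mtr-miR156i-5p matched at 19 of 20 positions, mtr-miR398b and mtr-miR398a-3p at 19 of 21, and mtr-miR169c and mtr-miR169h at 17 of 21. The 26 sequences held 24 different seeds, and the 2 seeds that were shared both belonged to the miR156 family. How reads of a shared sequence were divided among its entries is not given in the sources used here.

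Of the 905 entries, 647 passed the filter on low counts and were tested (451 known and 196 predicted, which are 464 distinct sequences or count profiles). A call of higher or lower in salt required both a fold change above 1.5 and an adjusted p below 0.05. In salt, 26 miRNAs rose, which is 4.02% of those tested, and 27 fell, which is 4.17%. DESeq2 called 33 higher and 11 lower, so the balance of rises and falls among entries depended on the tool. Much of the change in the lower calls lay in miR2111, where 15 entries of 2 distinct sequences fell and DESeq2 called 3 of them. The 26 that rose were 21 known and 5 predicted miRNAs of 20 distinct sequences, and the 27 that fell were all known and held 11 distinct sequences. All 53 had salt and distilled water libraries that did not overlap, as did 24.1% of all tested miRNAs. The rises were 1.51-fold to 49.1-fold with a median of 1.86-fold, and the largest stood apart, since the next was 2.88-fold. The falls were 1.57-fold to 5.44-fold with a median of 2.09-fold, and 20 of the 27 averaged under 10 CPM in salt. Of these 27 entries, 14 share 1 miR2111 sequence, so the median and the count under 10 CPM weigh entries and not separate measurements. Over all tested miRNAs the median log2 fold change was -0.06, with 281 positive and 366 negative values.

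**Figure D1:**
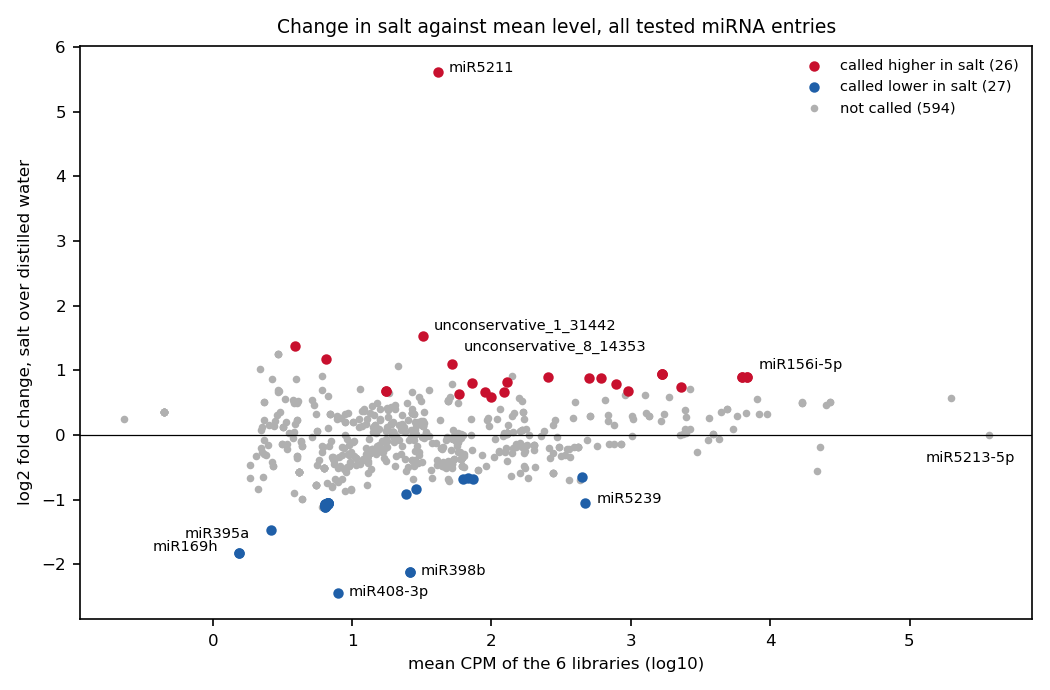
Change in salt against mean level for the 647 tested miRNAs. Each point is 1 entry; the x axis is the log10 of its mean CPM over the 6 libraries and the y axis its log2 fold change of salt over distilled water, with the 26 higher calls in red, the 27 lower calls in blue and the others in grey. miR5211 lies alone at 5.62, the next rise is unconservative_1_31442 at 1.53, and the lowest point is miR408-3p at -2.44.

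These counts changed with single libraries. Leaving out 1 library at a time, the higher calls numbered 4 to 70 and the lower calls 4 to 40, with the fewest of both without SS2, the most higher calls without DW3 and the most lower calls without AS1. Of the 53 calls, 7 were made with any of the 9 libraries left out and under every other alternative tried, with mtr-miR398b standing for mtr-miR398c where 1 entry per sequence was kept. They were mtr-miR5211, mtr-miR156i-3p and the predicted unconservative_1_31442 and unconservative_8_14353, which rose, and mtr-miR398b, mtr-miR398c and mtr-miR408-3p, which fell. With the study's clean reads as library sizes in place of the miRNA total and its TMM factor, the same 7 were the only calls. Every other call below was lost in at least 1 of these settings.

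**Figure D2:**
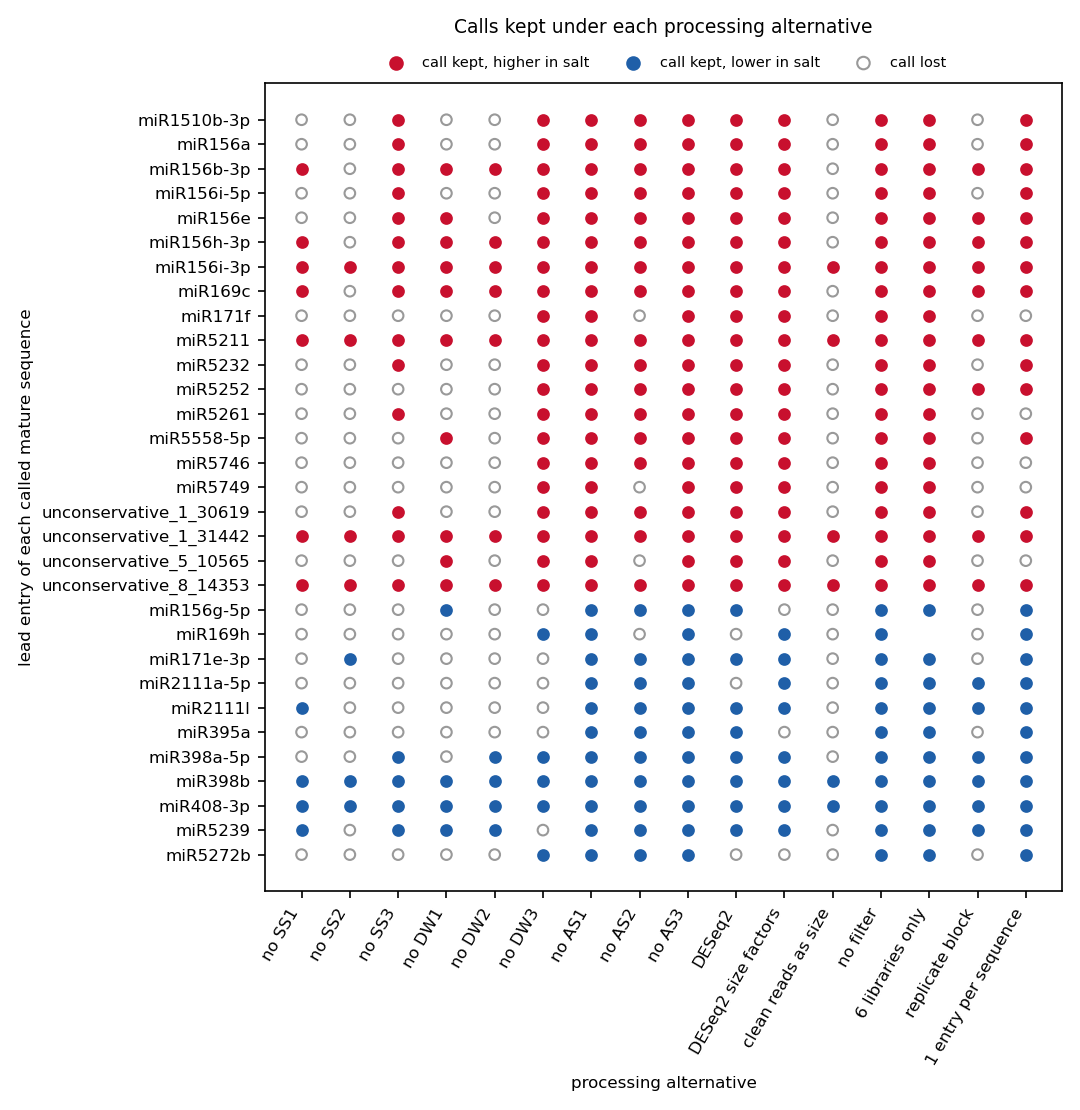
Calls of salt against distilled water kept under each processing alternative. Rows are the lead entries (the most abundant called entry) of the 31 called mature sequences and columns the alternatives; a filled circle is a call kept (red higher, blue lower in salt), an open circle a call lost, and no circle an entry that was not tested. Rows filled throughout are miR5211, miR156i-3p, unconservative_1_31442, unconservative_8_14353, miR398b and miR408-3p.

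The largest change was that of mtr-miR5211, a known 22-nt miRNA. It had 75.5, 95.5 and 70.4 CPM in SS1 to SS3, against 1.19, 1.61 and 2.05 CPM in DW1 to DW3. The lowest salt library was far above the highest distilled water library, where only 6, 7 and 10 reads were counted in DW1 to DW3. It rose 49.1-fold (log2 fold change 5.62 ± 0.28 (SE), adjusted p = 6.33e-13), and its log2 fold change was 5.48 to 5.89 with 1 library left out. In alkali it had 76.5, 52.5 and 67 CPM in AS1 to AS3, and the log2 fold change of salt over alkali was 0.30 ± 0.20 (SE), adjusted p = 0.467. Its seed, printed in capitals above, was found in no other called sequence.

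The predicted unconservative_1_31442, a 24-nt entry, had 52.2, 44.8 and 46.1 CPM in SS1 to SS3, against 22.9, 17 and 9.62 CPM in DW1 to DW3. It rose 2.88-fold in salt (log2 fold change 1.53 ± 0.26 (SE), adjusted p = 6.41e-04), and its distilled water libraries differed among themselves by more than its salt libraries. The study cautions that plant miRNAs of 24 nt have seldom been verified and may be confused with heterochromatic siRNAs, another class of small RNA. Which of these the entry is was not tested. The predicted 21-nt entry unconservative_8_14353 had 72.4, 73 and 68.1 CPM in SS1 to SS3, against 28.7, 32.1 and 38.9 CPM in DW1 to DW3. It rose 2.14-fold (log2 fold change 1.10 ± 0.19 (SE), adjusted p = 7.99e-04), and the 3 salt libraries were close together. The other predicted miRNAs that rose were unconservative_1_30619, with 1116, 1349.8 and 1075 CPM in SS1 to SS3, against 629, 682 and 893 CPM in DW1 to DW3, and the pair unconservative_5_10565 and unconservative_5_10566, which had the same counts in every library. Their log2 fold changes were 0.68 (adjusted p = 0.0318) and 0.68 (adjusted p = 0.0349). The first call was lost without SS1, SS2, DW1 or DW2 (adjusted p 4.11e-04 to 0.119 over the libraries left out) and the second without SS1, SS2, SS3, DW2 or AS2 (adjusted p 0.0192 to 0.126). No predicted miRNA fell.

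The miR156 family, which targets SPL transcription factors and keeps plants in the juvenile phase, held the most calls among the rises. Of its 16 tested entries, 11 rose and 1 fell, where 4.02% and 4.17% of all tested miRNAs did, and the median log2 fold change of the 16 was 0.89. The 11 entries that rose are 6 distinct sequences, so 6 measurements stand behind them. The list was chosen with results of these libraries known, and its count is not independent evidence of a direction. Whether the miR156 rises followed the delayed development of the salt seedlings was not tested.

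The most abundant sequence of the family that rose, with mtr-miR156i-5p as its lead entry, had 8532, 11112 and 7065 CPM in SS1 to SS3, against 3485, 4452 and 6369 CPM in DW1 to DW3. It averaged 8903 ± 2049 CPM in salt and 4769 ± 1468 CPM in distilled water (SD, n = 3 each) and rose 1.87-fold (log2 fold change 0.90 ± 0.24 (SE), adjusted p = 0.0291). The lowest salt library, SS3, was only a little above the highest distilled water library, DW3. The second, with mtr-miR156e as its lead, had 2206, 2520.0 and 1914 CPM in SS1 to SS3, against 849, 1018 and 1596 CPM in DW1 to DW3, and again DW3 lay nearest to salt (log2 fold change 0.94 ± 0.23 (SE) with an adjusted p = 0.0216). For mtr-miR156a the values were 799, 868 and 709 CPM in SS1 to SS3, against 320.2, 359 and 608 CPM in DW1 to DW3 (log2 fold change 0.88, adjusted p = 0.0291). The calls of mtr-miR156i-5p and mtr-miR156a were lost without SS1, SS2, DW1 or DW2, and that of mtr-miR156e without SS1, SS2 or DW2, with adjusted p of at most 0.119 among these.

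In all, 3 of the 3p arms of the family also rose. mtr-miR156i-3p had 96.1, 93.8 and 87.1 CPM in SS1 to SS3, against 48.2, 53.5 and 56.5 CPM in DW1 to DW3. Both groups were tight, and it rose 1.75-fold (log2 fold change 0.81 ± 0.17 (SE), adjusted p = 0.00647), with adjusted p 5.96e-04 to 0.0371 when 1 library was left out. mtr-miR156b-3p had 338, 374 and 274 CPM in SS1 to SS3, against 116, 174 and 238 CPM in DW1 to DW3 (log2 fold change 0.90, adjusted p = 0.0209). mtr-miR156h-3p had 603, 700.4 and 631 CPM in SS1 to SS3, against 209.9, 397 and 449 CPM in DW1 to DW3 (log2 fold change 0.87, adjusted p = 0.0216). Both of these calls were lost without SS2 only among the libraries (adjusted p 0.0873 for both). For the hairpins b, h and i, both arms were therefore called higher, although the 5p sequence of b and of i is one and the same. That of h is shared with mtr-miR156e and mtr-miR156f, so none of these 5p calls can be assigned to 1 hairpin.

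The hairpin miR156g had a call in the other direction. mtr-miR156g-5p had 378, 367 and 295 CPM in SS1 to SS3, against 469.6, 482 and 676 CPM in DW1 to DW3 and fell 1.57-fold (log2 fold change -0.65 ± 0.18 (SE), adjusted p = 0.0318). Its call was lost without SS1, SS2, SS3, DW2 or DW3 (adjusted p 0.0237 to 0.14). mtr-miR156g-3p, the most abundant entry of the whole family, had 19584, 19875 and 13584 CPM in SS1 to SS3, against 18438, 27391 and 31969 CPM in DW1 to DW3, with overlapping groups and a log2 fold change of -0.55 (adjusted p = 0.159). The other entries with no call were mtr-miR156j at 0.69 (adjusted p = 0.075), mtr-miR156c-3p at 0.54 (adjusted p = 0.0705) and mtr-miR156d-3p at -0.07 (adjusted p = 0.907). In the miR172 family, which targets AP2-like repressors of flowering and in Arabidopsis acts later in the same phase change, 2 of 6 entries were tested and neither was called. These 2, mtr-miR172b and mtr-miR172c-3p, had identical counts in the 6 libraries and are 1 measurement, with a log2 fold change of -0.33 (adjusted p = 0.625) at 3.61 CPM in salt and 4.45 CPM in distilled water.

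Most tested miRNAs of the copper response fell. Plants raise miR397, miR398 and miR408 when copper is scarce, and these miRNAs target copper proteins, among them copper/zinc superoxide dismutases (miR398), plantacyanins (miR408) and laccases (miR397 and miR408). Of 8 entries, 6 were tested, and 4 of them, 3 distinct sequences, fell in salt, beside 4.17% of all tested miRNAs. None rose, and the median log2 fold change of the 6 was -1.62.

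mtr-miR398b had 7.33, 12 and 9.88 CPM in SS1 to SS3, against 33.4, 48 and 45 CPM in DW1 to DW3, and mtr-miR398c, which has the same sequence, the same counts in these 6 libraries. The highest salt library was far below the lowest distilled water library, and the sequence fell 4.35-fold (log2 fold change -2.12 ± 0.24 (SE), adjusted p = 1.88e-06), with adjusted p 9.47e-17 to 3.29e-05 over the libraries left out. mtr-miR408-3p had 2.22, 3.22 and 2.11 CPM in SS1 to SS3, against 11.1, 10.6 and 18.2 CPM in DW1 to DW3 and fell 5.44-fold (log2 fold change -2.44 ± 0.33 (SE), adjusted p = 2.80e-05), on 10, 11 and 16 reads in SS1 to SS3, against 56, 46 and 89 reads in DW1 to DW3. Here too the groups were well apart, and DW3 was the highest. mtr-miR398a-5p, from the 5p arm of the miR398a hairpin, had 13.1, 18.5 and 18.6 CPM in SS1 to SS3, against 31, 24.3 and 39.7 CPM in DW1 to DW3 and fell 1.89-fold (log2 fold change -0.92 ± 0.24 (SE), adjusted p = 0.0291). That call was lost without SS1, SS2 or DW1 (adjusted p 0.00254 to 0.105).

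Among the copper entries that were not called, mtr-miR398a-3p, whose sequence differs from mtr-miR398b at 2 of 21 positions, had 5.55, 7.62 and 5.93 CPM in SS1 to SS3, against 11.5, 9.41 and 13.3 CPM in DW1 to DW3. Its groups did not overlap, and its log2 fold change of -0.86 missed the threshold (adjusted p = 0.0503). mtr-miR397-5p had 2.89, 4.98 and 3.69 CPM in SS1 to SS3, against 4.35, 5.74 and 14.5 CPM in DW1 to DW3, where the groups overlapped and DW3 alone was high (log2 fold change -1.12, adjusted p = 0.0776). Whether mtr-miR398a-3p and mtr-miR397-5p were called depended on the setting. Both were called lower with only the 6 libraries fitted and without AS1, and mtr-miR397-5p also without DW1 or AS3. mtr-miR408-5p was not tested, with 5, 2 and 3 reads in SS1 to SS3, against 8, 8 and 16 reads in DW1 to DW3.

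All tested miR2111 entries fell, where 4.17% of all tested miRNAs did. In Lotus japonicus and Medicago truncatula, miR2111 moves from shoot to root and targets TML, a repressor of nodulation. The 15 tested entries of 20 are 2 distinct sequences, so their count is that of 2 measurements. The 5p sequence shared by 14 entries, with mtr-miR2111a-5p as its lead, had 3.77, 4.1 and 5.14 CPM in SS1 to SS3, against 10.1, 7.12 and 10.2 CPM in DW1 to DW3. It was a rare sequence, with 17, 14 and 39 reads in SS1 to SS3, against 51, 31 and 50 reads in DW1 to DW3, and its groups were apart by a small margin between SS3 and DW2. It fell 2.07-fold (log2 fold change -1.05 ± 0.30 (SE), adjusted p = 0.0318), and the 14 entries ranged from -1.11 to -1.05. mtr-miR2111l had 26.4, 19 and 16.1 CPM in SS1 to SS3, against 34, 32.8 and 42.8 CPM in DW1 to DW3 and fell 1.79-fold (log2 fold change -0.84 ± 0.22 (SE), adjusted p = 0.0291). The call of mtr-miR2111a-5p was lost without any 1 of the 6 salt and distilled water libraries (adjusted p 0.0241 to 0.138) and by DESeq2, and that of mtr-miR2111l without SS2, SS3, DW1, DW2 or DW3 (adjusted p 0.00675 to 0.13). The 5 entries that were not tested are those named as 3p arms, of which the highest had 13 reads in a library. The name mtr-miR2111l gives no arm. Its sequence matched that of mtr-miR2111a-5p at only 9 of 20 positions, and part of it is the reverse complement of the start of that sequence. The arm it comes from was not tested.

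**Figure D3:**
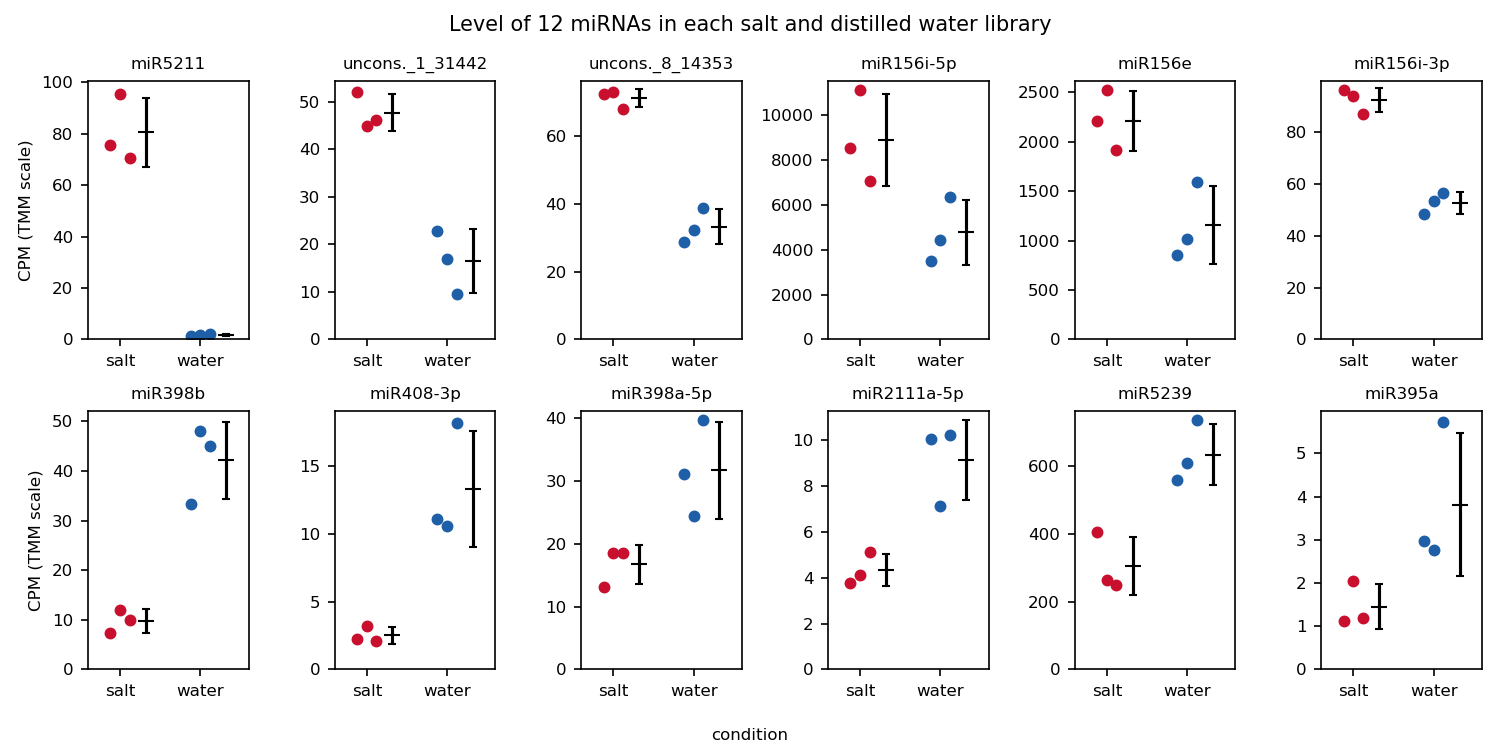
Level of 12 miRNAs in each library. Each panel shows the CPM of 1 lead entry on a linear axis from 0, with the 3 salt libraries (red) left of the 3 distilled water libraries (blue) in the order of their numbers, and the mean with its SD beside them. The upper row holds miRNAs that rose and the lower row miRNAs that fell; miR5211, miR398b and miR408-3p have the widest gaps, while miR156i-5p and miR156e have DW3 close to SS3.

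The miR395 family targets ATP sulfurylases and a sulfate transporter, and in other plants it accumulates when sulfate is short. Of 15 entries, 12 were tested, and only mtr-miR395a fell. It had 1.11, 2.05 and 1.19 CPM in SS1 to SS3, against 2.96, 2.75 and 5.73 CPM in DW1 to DW3, on 5, 7 and 9 reads in SS1 to SS3, against 15, 12 and 28 reads in DW1 to DW3, and fell 2.77-fold (log2 fold change -1.47 ± 0.43 (SE), adjusted p = 0.0329). No call was made once any of SS1 to SS3 or DW1 to DW3 was left out (adjusted p 0.00886 to 0.14 over the libraries left out). The other 11 tested entries had log2 fold changes of 0.25 to 0.36, on 0, 4 and 3 reads in SS1 to SS3, against 0, 4 and 1 reads in DW1 to DW3 for mtr-miR395c, and no difference was detectable at this depth. All but mtr-miR395g of these 11 are listed with the sequence of mtr-miR395a, although their counts differ from its counts. With only the 6 libraries fitted, mtr-miR395a was the 1 entry of the family that passed the filter.

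In the miR169 family, which targets NF-YA transcription factors, 1 entry rose and 2 fell among 6 tested of 13, beside 4.02% higher and 4.17% lower over all tested miRNAs. mtr-miR169c had 131, 198 and 164 CPM in SS1 to SS3, against 70.2, 106 and 105 CPM in DW1 to DW3 and rose 1.75-fold (log2 fold change 0.81 ± 0.19 (SE), adjusted p = 0.0209), and the call was lost without SS2 (adjusted p 6.68e-04 to 0.102). mtr-miR169h and mtr-miR169i, which share the second printed miR169 sequence, had 2, 4 and 4 reads in SS1 to SS3, against 13, 11 and 10 reads in DW1 to DW3. They fell 3.54-fold (log2 fold change -1.82 ± 0.53 (SE), adjusted p = 0.0329), and this call, on 2 to 4 reads in each salt library, was lost without SS1, SS2, SS3, DW1, DW2 or AS2 (adjusted p 0.0252 to 0.162) and by DESeq2. With only the 6 libraries fitted, 4 miR169 entries passed the filter and this pair did not. Its test therefore rested on the presence of the alkali libraries. The other 3 tested entries had log2 fold changes of 0.49 to 0.70 and were not called.

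The miR171 family, which targets SCARECROW-like GRAS transcription factors, had 1 entry that rose and 1 that fell among 6 tested of 9, beside the same 4.02% and 4.17%. mtr-miR171f had 66.8, 78 and 68.1 CPM in SS1 to SS3, against 42.7, 36.5 and 58.3 CPM in DW1 to DW3 and rose 1.54-fold (log2 fold change 0.63 ± 0.19 (SE), adjusted p = 0.0416). mtr-miR171e-3p had 44, 58.3 and 43 CPM in SS1 to SS3, against 74.5, 76.4 and 81 CPM in DW1 to DW3 and fell 1.6-fold (log2 fold change -0.68 ± 0.18 (SE), adjusted p = 0.0291). The 2 sequences overlap by 18 positions when shifted by 3 and match at 17 of them. The calls were lost without SS1, SS2, SS3, DW1, DW2 or AS2 for mtr-miR171f (adjusted p 0.00179 to 0.193) and without SS1, SS3, DW1, DW2 or DW3 for mtr-miR171e-3p (adjusted p 0.0161 to 0.112). The most abundant entry of the family, mtr-miR171e-5p, had a log2 fold change of -0.20 (adjusted p = 0.55).

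Of the miRNAs that target mRNAs of NBS-LRR disease resistance proteins in legumes, 9 were tested and 1, mtr-miR1510b-3p, rose, beside 4.02% of all tested miRNAs. It had 2988, 3104 and 2482 CPM in SS1 to SS3, against 1331, 1716 and 2091 CPM in DW1 to DW3 (log2 fold change 0.74 ± 0.20 (SE) with an adjusted p = 0.0291). All 9 log2 fold changes were positive, with a median of 0.27, and among them the most abundant, mtr-miR1510a-3p, had 0.10, mtr-miR482-3p 0.04 and mtr-miR2118 0.00. The median was 0.46 without DW3, and 8 of 9 values were positive without SS1, SS2, SS3 or DW2. The list had 3 higher calls without DW3, AS1 or AS3. The call of mtr-miR1510b-3p was lost without SS1, SS2, DW1 or DW2 (adjusted p 2.10e-04 to 0.114). The study also measured known miRNAs by RT-qPCR, and miR1510b-3p was the only one for which it reported a pattern unlike that of its sequencing.

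The other known miRNAs that rose belong to families for which no role is given here. mtr-miR5232 was the most abundant, with 971, 1238 and 778 CPM in SS1 to SS3, against 451, 581 and 705 CPM in DW1 to DW3 (log2 fold change 0.78 ± 0.21 (SE) with an adjusted p = 0.0291). mtr-miR5252 had 5.99, 5.27 and 5.67 CPM in SS1 to SS3, against 1.38, 2.07 and 3.07 CPM in DW1 to DW3, and mtr-miR5746, a 24-nt entry, had 11.3, 6.74 and 8.96 CPM in SS1 to SS3, against 4.55, 2.75 and 4.71 CPM in DW1 to DW3. These 2 rare miRNAs had the largest changes of the group, 2.59-fold and 2.24-fold (adjusted p = 0.0318 and 0.0463). mtr-miR5261, mtr-miR5558-5p and mtr-miR5749 rose by log2 fold changes of 0.66, 0.66 and 0.59 (adjusted p = 0.0329, 0.0318 and 0.0463), at mean levels between 109.9 and 150.5 CPM in salt and between 69.3 and 95 CPM in distilled water. The call of mtr-miR5232 and of mtr-miR5261 was lost without SS1, SS2, DW1 or DW2, that of mtr-miR5558-5p without SS1, SS2, SS3 or DW2, that of mtr-miR5252 and of mtr-miR5746 without SS1, SS2, SS3, DW1 or DW2, and that of mtr-miR5749 without SS1, SS2, SS3, DW1, DW2 or AS2. The adjusted p of these 6 with a library left out reached 0.177.

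Of the remaining falls, mtr-miR5239 was the most abundant, with 404, 263 and 249 CPM in SS1 to SS3, against 559, 608 and 735 CPM in DW1 to DW3. It fell 2.08-fold (log2 fold change -1.06 ± 0.23 (SE), adjusted p = 0.011), with SS1 nearest to distilled water, and its call was lost without SS2 or DW3 (adjusted p 1.43e-04 to 0.0828). mtr-miR5272b, a 24-nt sequence also listed as mtr-miR5272a, had 45.1, 61.8 and 63.4 CPM in SS1 to SS3, against 107, 98.7 and 68.8 CPM in DW1 to DW3. It fell 1.61-fold (log2 fold change -0.69 ± 0.20 (SE), adjusted p = 0.0329), with DW3 close to SS2 and SS3, and the call was lost without SS1, SS2, SS3, DW1 or DW2 (adjusted p 0.00534 to 0.193) and by DESeq2.

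**Figure D4:**
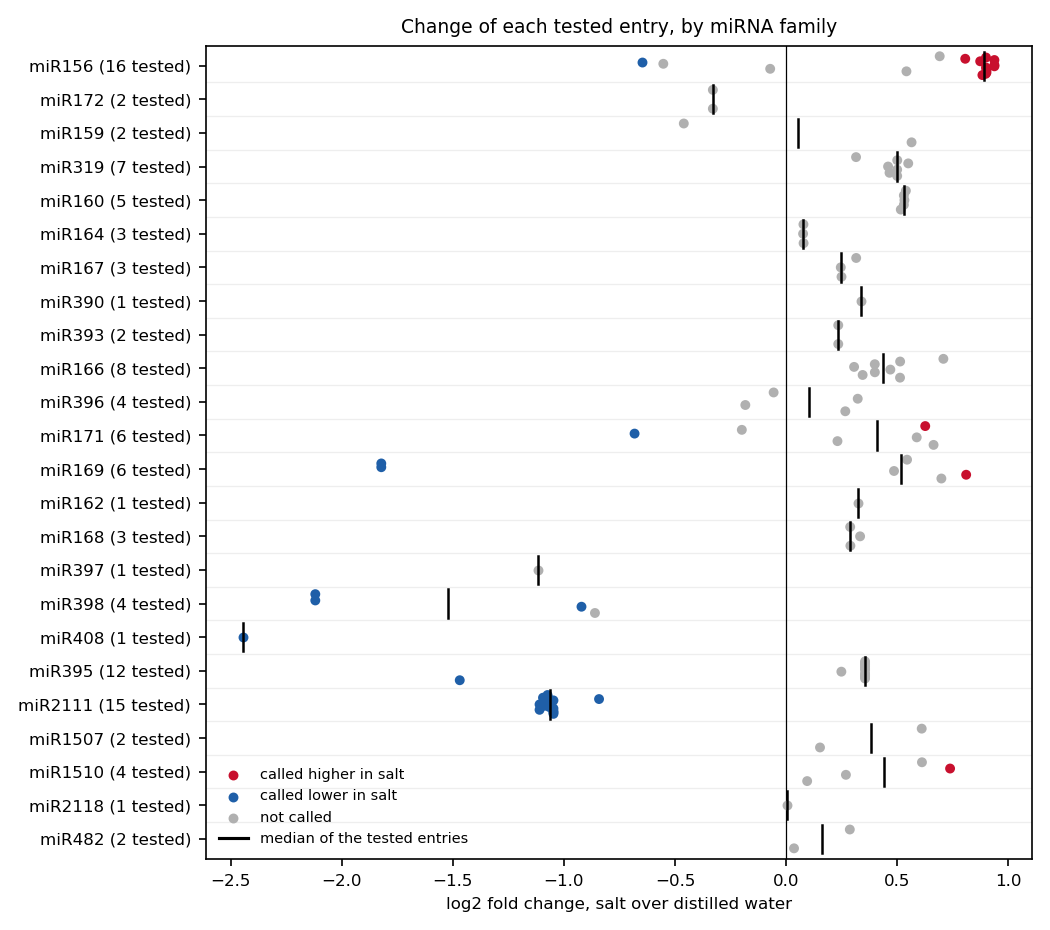
Log2 fold change of salt over distilled water for each tested entry of 24 miRNA families. Each point is 1 entry (red higher, blue lower, grey not called) and the black line is the median of the family's tested entries. The miR156 points cluster near 0.9 apart from the g hairpin, miR398, miR408 and miR2111 lie to the left of 0, and the entries of miR319, miR160 and miR166 lie to the right of 0 with no call.

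Several developmental families had no call. The miR319 family, which targets TCP transcription factors, had 7 tested entries with log2 fold changes of 0.32 to 0.55. The miR166 family, which targets HD-ZIP transcription factors, had 8, of 5 distinct sequences, with a median of 0.43. In both families all values were positive and none passed the threshold, and the smallest adjusted p was 0.145 for miR319 and 0.0526 for miR166, that of mtr-miR166g-5p. These results depended on DW3. Without it the medians were 0.76 for miR319 and 0.70 for miR166, and 5 of 7 and 7 of 8 entries were called higher. Without SS3, AS1 or AS3, 1 miR166 entry was called. Auxin signalling was covered by miR393, miR390, miR167, miR164 and miR160, whose 14 tested entries were all positive, with a median of 0.28 and none called. Without SS2, 10 of 15 were positive, and without DW3 the median was 0.67 and 6 of 15 were called higher. The most abundant of them, mtr-miR167b-5p, which targets auxin response factors, averaged 9219 ± 360.2 CPM in salt and 7406 ± 1735 CPM in distilled water (SD, n = 3 each), and the smallest adjusted p, 0.0913, was in miR160, which targets other auxin response factors. Of miR162 and miR168, which target the Dicer and Argonaute mRNAs of the miRNA pathway itself, 4 entries were tested with a median of 0.31 and none called, mtr-miR162 being the most abundant (log2 fold change 0.32, adjusted p = 0.305). That median was 0.51 without DW3. The miR396 family, which targets growth-regulating factors, had 4 tested entries with 2 positive and 2 negative values and none called.

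Phosphate miRNAs could not be compared. All 21 entries of miR399, which targets the ubiquitin conjugase mRNA of the phosphate response and rises in phosphate starvation, were left out by the filter, with at most 5 reads in any of the 6 libraries, mtr-miR399k having the most in all. A change of miR399 was not detectable at this depth.

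The most abundant miRNAs had no call. mtr-miR5213-5p held 39.2% of the counts of the 6 libraries and averaged 370381 ± 109066 CPM in salt and 370137 ± 86052 CPM in distilled water (SD, n = 3 each), with a log2 fold change of 0.00 ± 0.26 (SE). mtr-miR159a, which targets GAMYB-like transcription factors, held 21.8% and averaged 238481 ± 22743 CPM in salt and 161160.0 ± 57883 CPM in distilled water (SD, n = 3 each), with overlapping groups (log2 fold change 0.57 ± 0.26 (SE), adjusted p = 0.194). The others of the 10 most abundant known miRNAs were mtr-miR166a, mtr-miR166g-3p, mtr-miR166e-3p, mtr-miR396a-5p, mtr-miR156g-3p, mtr-miR319b-3p, mtr-miR319a-3p and mtr-miR319d-3p, with log2 fold changes of -0.55 to 0.51. None of the 10 was called, and without DW3 7 of them were called higher. These 7 were mtr-miR159a, the 3 miR166 entries and the 3 miR319 entries, and they are not 7 separate measurements. The 3 miR319 entries had nearly equal counts, with 493531, 493186 and 492991 over the 6 libraries. The 3 miR166 entries are listed with 1 mature sequence, whose salt libraries were all above the distilled water libraries, as 24.1% of all tested miRNAs had groups that did not overlap. A library's CPM depends on these few miRNAs through its total, and the TMM factors given above reduce that dependence.

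Where both arms of a called hairpin were tested, the arms had the same sign for every hairpin but miR156d, whose 5p arm was called higher and whose 3p arm had -0.07. That 5p sequence is shared with mtr-miR156b-5p, mtr-miR156c-5p and mtr-miR156i-5p, so its value cannot be assigned to 1 hairpin. The 5p values of these hairpins are 1 measurement. The other arm of mtr-miR1510b-3p had 0.61 (adjusted p = 0.117), that of mtr-miR5558-5p 0.52 (adjusted p = 0.0579) and that of mtr-miR398a-5p -0.86 (adjusted p = 0.0503), so none of these 3 second arms was called.

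By miRNA length, the calls were as follows. Of 351 tested known entries of 20 to 22 nt, 19 rose and 25 fell, with a median log2 fold change of 0.03. By distinct sequence, of which there were 210, 14 rose and 10 fell, and with 1 entry per sequence the median was 0.13. Of 93 tested known entries of 24 nt, 1 rose and 2 of 1 sequence fell, with a median of -0.19 and 25 positive values. These 93 were 60 distinct sequences. Of 132 tested predicted entries of 24 nt, 1 rose and none fell, with a median of -0.27 and 18 positive values, while the 48 predicted entries of 20 to 22 nt had a median of 0.21 and 2 that rose. These shares stand beside 4.02% higher and 4.17% lower over all tested miRNAs. The medians moved with single libraries. That of the known 24-nt entries was 0.02 without DW1, that of the predicted 24-nt entries -0.11 without DW1 and -0.13 without DW2, and that of the known entries of 20 to 22 nt -0.04 without DW1, -0.01 without SS1 and 0.15 without DW3. As a share of the miRNA counts, predicted 24-nt entries held 1.04 ± 0.0865% in salt and 1.44 ± 0.336% in distilled water (SD, n = 3 each; two-sided exact permutation p = 0.2), and known 20-nt entries held 7.30 ± 0.702% in salt and 5.37 ± 0.889% in distilled water (two-sided exact permutation p = 0.1, the smallest that 3 against 3 can give). The known 20-nt share counts the mtr-miR156i-5p sequence under 4 entry names, so it is not separate from the miR156 rise above. The share of predicted 22-nt entries was 0.709 ± 0.112% in salt and 0.930 ± 0.132% in distilled water, at the same exact permutation p of 0.1.

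Against alkali, the same salt libraries had 4 miRNAs called higher, which is 0.618% of those tested, and 22 called lower, which is 3.4%. The comparisons with distilled water and with alkali share the salt libraries, so their values are given side by side. The 4 called higher than alkali, named after their values were seen, were mtr-miR5205a, mtr-miR5205b, mtr-miR5277 and mtr-miR5283, with log2 fold changes of salt over alkali of 0.61 to 0.88 and none called against distilled water. Their number was 0 without SS3, AS1 or AS2 and 36 without AS3. Of the 53 calls against distilled water, 9 were also called against alkali, all as lower in salt, and the other calls had none there.

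Both strongly lowered copper miRNAs were also lower in salt than in alkali. mtr-miR398b had 7.33, 12 and 9.88 CPM in SS1 to SS3, against 51.2, 35.3 and 43.4 CPM in AS1 to AS3, and the log2 fold change of salt over alkali was -2.16 ± 0.24 (SE), adjusted p = 1.37e-06. mtr-miR408-3p had 10.3, 11 and 6.6 CPM in AS1 to AS3 (log2 fold change of salt over alkali -1.95 ± 0.34 (SE), adjusted p = 3.49e-04). The 5p arm mtr-miR398a-5p was not among these, with 13.1, 18.5 and 18.6 CPM in SS1 to SS3 and 10.1, 9.23 and 16 CPM in AS1 to AS3 (log2 fold change of salt over alkali 0.53 ± 0.25 (SE), adjusted p = 0.277). mtr-miR395a had 1.11, 2.05 and 1.19 CPM in SS1 to SS3, against 63.9, 38 and 38.3 CPM in AS1 to AS3, the widest gap of the 9. mtr-miR5232 lay in salt between the other conditions, with 971, 1238 and 778 CPM in SS1 to SS3, 2594, 2185 and 1929 CPM in AS1 to AS3 and 451, 581 and 705 CPM in DW1 to DW3, and unconservative_1_30619 showed the same order.

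**Figure D5:**
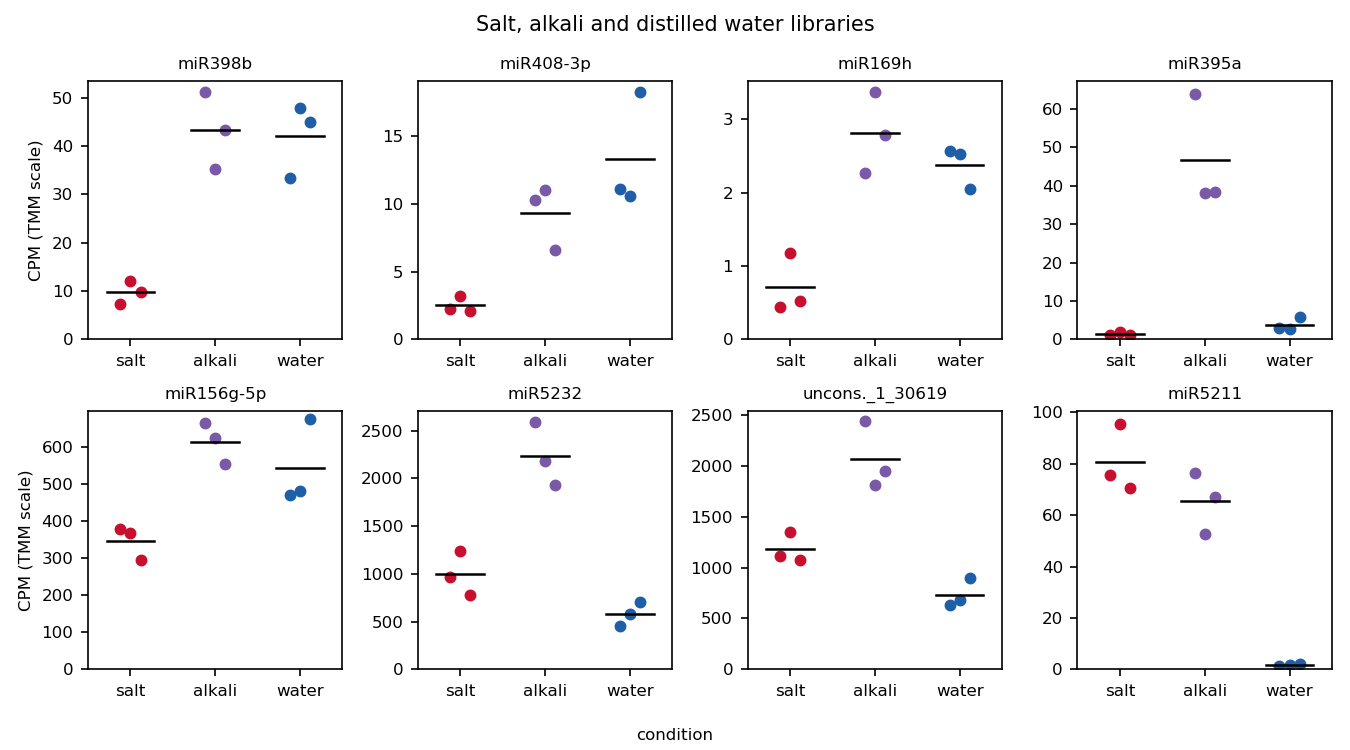
Level of 8 miRNAs in salt, alkali and distilled water. Points are libraries (salt red, alkali purple, distilled water blue), the line is the mean of 3 libraries, and each panel has its own linear CPM axis from 0. miR398b, miR408-3p, miR169h and miR156g-5p are lowest in salt, miR395a, miR5232 and unconservative_1_30619 are highest in alkali, and miR5211 is lowest in distilled water.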

How the data were processed

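Total RNA of entire seedlings was made into small RNA libraries. Per the labels and the methods of the study, the authors trimmed and size-selected the reads, used Bowtie to take out rRNA, tRNA and similar sequences, mapped what was left to the Mt4.0 genome with miRDeep-p, compared it with known miRNAs of miRBase and deposited read counts for each known and predicted entry. The authors tested with DESeq 1.10.1, which was not used here. The counts are whole numbers and were analysed as deposited. Deposited normalised values were not used. Reads of identical sequences can be divided among entries or counted for each, which the sources used here do not settle, so entries are also given by distinct sequence.

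Counts were fitted in R 4.3.3 with edgeR 4.0.16. After filterByExpr (minimum count 10) and TMM scaling, 1 robust quasi-likelihood model by condition was fitted to the 9 libraries. Salt was set against distilled water and against alkali with Benjamini-Hochberg adjustment over 647 entries. The SE was the size of the log2 fold change over the square root of its F statistic. Entries were taken as 1 sequence by their listed mature sequence or, where none was listed, by identical counts. Columns were matched to libraries by their labels. Principal components used log2 CPM with a prior count of 2. The procedure was also run on simulated data with independent entries. These held no true changes as small as the smallest called here and no shared sequences, so such calls were not covered.

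All called miRNAs, the called and most abundant members of family lists, other arms and the 10 most abundant known miRNAs are named. Members and lists were chosen with earlier results of these data known. The alternatives were DESeq2 1.42.0, its size factors in edgeR, clean reads as library sizes, no filter, only the 6 libraries, a replicate block, 1 entry per sequence, and leaving out each library. Genome positions and targets were not analysed here. Targets named are background.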

Additional observations from a re-analysis of the deposited data

Results flagged for a closer look

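The salt libraries differed from the alkali libraries in 9 of the miRNAs called against distilled water, by the same fit and at an adjusted p under 0.05 for that difference. The log2 fold change of salt over alkali was -2.16 for mtr-miR398b, -2.15 for mtr-miR398c and -1.95 for mtr-miR408-3p. It was -2.07 for both mtr-miR169h and mtr-miR169i, which are 1 sequence with few reads, and -0.82 for mtr-miR156g-5p. mtr-miR395a had -5.07, with 1.11, 2.05 and 1.19 CPM in SS1 to SS3, against 63.9, 38 and 38.3 CPM in AS1 to AS3. mtr-miR5232 and unconservative_1_30619, which rose against distilled water, were lower in salt than in alkali, with -1.17 and -0.81.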

How the results depend on the processing

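Against the 26 higher calls, clean reads as library sizes gave 4, no filter 43, only the 6 libraries 42, the replicate block 11 and 1 entry per sequence 15. Against the 27 lower calls, DESeq2 gave 11, clean reads as library sizes 3 and 1 entry per sequence 11. Leaving out 1 library gave 4 to 70 higher and 4 to 40 lower calls. Salt against alkali gave 1 higher call with the replicate block, 2 with 1 entry per sequence and 0 to 36 with a library left out, beside 4, and 10 lower calls with 1 entry per sequence, beside 22. The 26 higher calls held 20 distinct sequences and the 27 lower calls 11, while the 4 higher calls against alkali held 4. With 1 entry per sequence, 5 called entries that were still tested against distilled water lost their call, at adjusted p 0.0549 to 0.0695. The causes of these changes were not tested. Of 824 values of the called miRNAs under these settings, 514 stayed past the threshold, 310 did not and 0 changed sign. Without DW3, 101 miRNAs were called, 34 of them shared with the 53.

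Whether the replicate numbers pair the libraries could not be decided from 3 libraries in each condition. Deviations of same-numbered salt and distilled water libraries correlated at 0.10, 0.23 and -0.26 over 464 distinct entries. Pairs with different numbers gave -0.32 to 0.24. With the replicate block, 31 of the 53 calls were made. Named miRNAs that were not called changed sign with a library left out, over log2 fold changes of mtr-miR156d-3p -0.15 to 0.22, mtr-miR164b -0.0144 to 0.34, mtr-miR171e-5p -0.40 to 0.0363, mtr-miR172b -0.48 to 0.17, mtr-miR2118 -0.0407 to 0.18, mtr-miR393a -0.29 to 0.50, mtr-miR396a-5p -0.26 to 0.0457, mtr-miR482-3p -0.00107 to 0.16 and mtr-miR5213-5p -0.25 to 0.27. mtr-miR5213-5p was -0.00606 with the replicate block and -0.0109 with 1 entry per sequence, where mtr-miR2118 was -0.00234. No scaling moved the median of all miRNAs by over 0.1. Few reads limit the miR395, miR169h, miR2111 and miR408 values, and miR399 could not be tested.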
